A study of Homo sapiens with 6 samples.

Results

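The genes described here are the cadherins, the desmosomal cadherins and the claudins of LNCaP prostate cancer cells, with the proteins that bind them at cell contacts. The members were listed by symbol, with CDH3 and DSC3 already known from earlier results to be lost in PACT KO cells. They are the protein-coding genes whose symbol is CDH, DSC, DSG or CLDN followed by a number, and with them DSP, PKP1, PKP2, PKP3, JUP, CTNNA1, CTNNB1, CTNND1, OCLN and TJP1. This gave 64 genes of the 29806 NCBI Gene numbers listed in the counts, namely 23 cadherins, 7 desmosomal cadherins, 24 claudins, 3 catenins, 5 proteins of the desmosomal plaque and 2 proteins of the tight junction.

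The study compared LNCaP parental cells with PACT KO cells, in which PACT, a protein that binds double-stranded RNA and is encoded by PRKRA, was targeted with CRISPR/Cas9. LNCaP is an established human prostate cancer line of luminal type. The parental cells were not transfected, whereas the PACT KO cells came from cells that took up a plasmid with Cas9, guide RNA and GFP, were sorted for GFP and grown as single colonies, and the 3 PACT KO libraries are dishes of 1 clone, so that the knockout and other features of that clone cannot be told apart. Both groups grew in RPMI-1640 with 10% fetal bovine serum in 10 cm dishes, and RNA was taken 48 h after plating at about 80% confluency. There were 3 libraries of polyA RNA per group, and nothing says that the dishes of a group came from separate cultures, so the p-values measure only the spread between these libraries, which may be technical.

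Classical cadherins are membrane proteins that hold neighbouring epithelial cells together by binding cadherins on the next cell, and their tails are tied to actin through beta-catenin, p120-catenin and alpha-catenin. Desmogleins and desmocollins do the same in desmosomes, where plakoglobin, plakophilins and desmoplakin link them to keratin filaments. Claudins and occludin seal the space between cells at tight junctions. In the prostate, E-cadherin (CDH1) is carried by luminal and basal cells, while P-cadherin (CDH3) and desmocollin 3 (DSC3) are known mainly from the basal layer.

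Each library held 19930060 to 24940838 reads on genes. The targeted gene PRKRA had 882, 809 and 866 reads in the parental libraries and 291, 331 and 243 in the PACT KO libraries. Its level was thus lower in every PACT KO library, with a log2 fold change of -1.57 (SE 0.07, FDR 8.83e-21 by edgeR's quasi-likelihood test, adjusted by Benjamini-Hochberg over all genes tested). Of 12 luminal markers, 11 had enough reads to test in both groups, FOLH1 (prostate-specific membrane antigen) among them at 1402 ± 7.29 in parental and 1556 ± 22.8 CPM in PACT KO cells (counts per 1e6 reads, mean ± SD, n = 3). Of these 11, 4 fell and 4 rose at an FDR under 0.01, KLK3 and KLK2 by more than 1.5-fold (log2 fold changes -2.50 and -0.84). KRT19 was near 0, with 0 to 6 reads per library. Of 12 basal markers, KRT5, KRT15 and KRT17 had 0 reads in every library, and TP63 had 1 read in 1 PACT KO library. Others of that list had reads in both groups, among them ITGB4 (9.69 and 13.1 CPM) and TRIM29 (1.43 and 1.66 CPM).

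Of the 64 members, 26 had enough reads to test, while 21 had 0 reads in every library, 10 had at most 3 reads in any library and 7 fell between (CDH7, CDH23, CLDN1, CLDN11, CLDN34, DSC1 and PKP1). Of the 26, CDH3 and DSC3 were named beforehand as lost in PACT KO cells, and both passed the filter on low counts only through their parental reads, so they are described without a test. Among the other 24, 0 were lower and 1 was higher at an FDR under 0.01 with a change of at least 1.5-fold, against 2.65% lower and 3.07% higher of all 14462 genes tested. At an FDR under 0.01 whatever the fold, 3 of the 24 fell (12.5%, against 18.8% of all genes) and 6 rose (25%, against 15.3%). At an unadjusted p under 0.05, 4 were lower and 8 higher, and limma-voom and DESeq2 also called 0 lower and 1 higher past 1.5-fold. The share of all genes at that unadjusted p was not counted, so the 4 and 8 have no background to be read against. The libraries of both groups did not overlap for 14 of the 24 (58.3%, against 52.2% of all genes). With 24 members these shares are 1 or a few genes away from those of all genes, and whether they differ was not tested. In all, 23 of the 24 stayed within 1.5-fold.

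CDH3, encoding P-cadherin, had 12, 20 and 23 reads in the LNCaP parental libraries and 0, 1 and 1 in the PACT KO libraries. This was 0.794 ± 0.230 CPM against 0.0302 ± 0.0265 CPM (SD, n = 3), and the groups lay far apart. Summed over libraries, 55 reads stood against 2, a ratio of 27.6 (95% exact interval 7.28 to 233, which covers counting error only) after allowing for library size. In the PACT KO library without a read, a count of 0 allows up to 3 reads, or 0.123 CPM before TMM scaling. In bulk RNA, fewer cells with a transcript and less of it per cell cannot be told apart.

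CDH1, encoding E-cadherin, lies next to CDH3 on the long arm of chromosome 16, with CDH3 at chr16:68645310-68733771 and CDH1 at chr16:68737292-68835537 (GRCh38.p14) and 3520 bases between them. CDH1 had 13861, 13284 and 14807 reads in the parental libraries and 14992, 15168 and 12198 in the PACT KO libraries. Scaled for depth this was 608 ± 8.63 against 611 ± 10.9 CPM, and the groups overlapped. The log2 fold change was 0.01 (95% interval -0.04 to 0.06, FDR 0.805 by edgeR's quasi-likelihood test). Per kilobase of exon, the CDH1 level was 1167, 671 and 651 times that of CDH3 in the 3 parental libraries. CDH3 made up 0.112% ± 0.0326 of the summed level per kilobase of all cadherins in parental cells and 0.00413% ± 0.00363 in PACT KO cells, against 86.6% ± 0.346 and 84.5% ± 1.13 for CDH1.

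Among the other genes within 6 places of CDH3 on the chromosome, the changes were small. SLC7A6 (log2 fold change -0.21), PRMT7 (-0.24) and UTP4 (-0.26) fell and ZFP90 (0.12) rose at an FDR under 0.01 by edgeR's quasi-likelihood test. None of these reached 1.5-fold.

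DSC3, encoding desmocollin 3, showed the same picture within the desmosome. It had 37, 28 and 31 reads in the parental libraries and 0, 2 and 0 in the PACT KO libraries, or 1.39 ± 0.207 against 0.0274 ± 0.0475 CPM. The groups did not overlap. The sums of 96 and 2 reads gave a ratio of 48.1 (95% exact interval 13.0 to 403, counting error only).

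DSC2, the desmocollin of simple epithelia, is the neighbour of DSC3 on chromosome 18. DSC3 lies at chr18:30989365-31042742 and DSC2 at chr18:31058840-31102421, with 16097 bases between them, and both are read from the minus strand. DSC2 had 113, 112 and 121 CPM in the parental libraries and 111, 108 and 109 CPM in the PACT KO libraries. All PACT KO values lay below the parental ones by a narrow margin. The log2 fold change was -0.07 (SE 0.03), which did not pass (FDR 0.0642 by edgeR's quasi-likelihood test). Per kilobase of exon, DSC2 stood at 39.1, 48.7 and 54.6 times the level of DSC3 in parental cells. DSC1, the third desmocollin, had at most 4 reads per library. DSCAS, a long noncoding RNA that overlaps DSC2 and DSC1, had 4 to 14 reads.

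**Figure D1:**
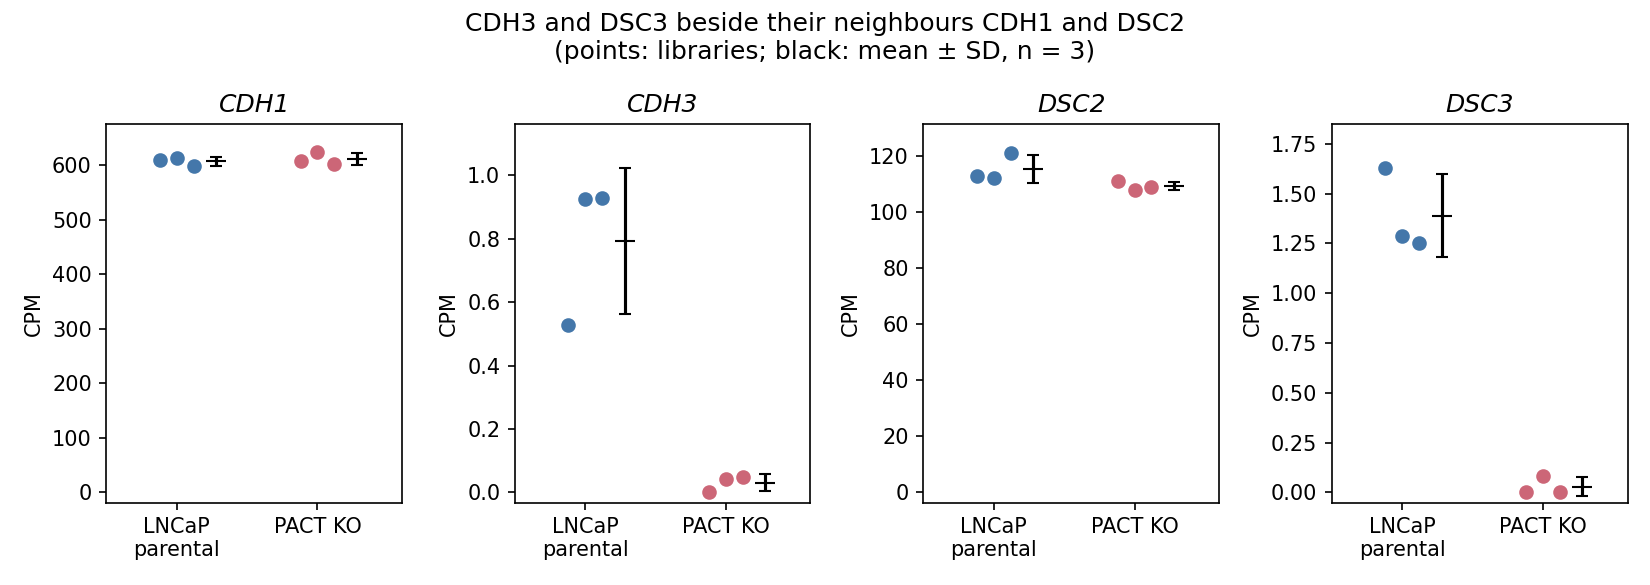
Level (CPM, linear axes from 0) of CDH1, CDH3, DSC2 and DSC3 in 3 LNCaP parental libraries (blue) and 3 PACT KO libraries (red), with points for libraries and black bars for mean ± SD. CDH3 and DSC3 drop to 0.0302 and 0.0274 CPM while CDH1 stays at 608 and 611 CPM and DSC2 at 115 and 110 CPM.

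The bases before the starts of DSC3 and DSC2 are shown because the neighbouring genes differed so much in level and in difference between groups. Both runs hold 250 bases up to the start, 5′ to 3′ on the minus strand, from RefSeq (GRCh38.p14), at chr18:31042743-31042992 for DSC3 and chr18:31102422-31102671 for DSC2. The capitals mark CAGGTG, an E-box of the kind that SNAI and ZEB repressors recognise.
DSC3: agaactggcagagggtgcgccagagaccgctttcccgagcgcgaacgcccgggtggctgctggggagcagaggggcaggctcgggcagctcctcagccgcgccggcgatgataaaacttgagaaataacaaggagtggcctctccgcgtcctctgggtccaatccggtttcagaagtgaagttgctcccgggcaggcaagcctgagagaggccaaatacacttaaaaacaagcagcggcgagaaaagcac
DSC2: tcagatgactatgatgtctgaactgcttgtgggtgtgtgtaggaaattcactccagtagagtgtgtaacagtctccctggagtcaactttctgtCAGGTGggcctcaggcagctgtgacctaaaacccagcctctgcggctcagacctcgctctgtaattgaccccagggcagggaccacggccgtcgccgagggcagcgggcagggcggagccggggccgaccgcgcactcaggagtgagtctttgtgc
The window searched ran from 250 bases before to 50 after the start. In it DSC3 held 25 CG pairs and DSC2 15, against a median of 26 for the genes tested, at 63.3% and 60.7% G and C. The E-box (CACCTG or CAGGTG, on either strand) occurred 1 time in DSC2, from base -156, and not in DSC3. The E-box was found in 20.6% of all promoters of the table and in 19% of those of genes tested. The GC box (GGGCGG or its complement) occurred in DSC2 from base -46 and not in DSC3. It was held by 44.6% of all promoters and by 69.5% of those of genes tested. The promoters of CDH3 and CDH1 were not analysed here.

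The other desmosomal cadherin with many reads was DSG2, encoding desmoglein 2, the desmoglein of simple epithelia. It had 208, 204 and 208 CPM in the parental libraries and 206, 207 and 207 CPM in the PACT KO libraries. The groups overlapped closely. Its log2 fold change was -0.00 (95% interval -0.06 to 0.05, FDR 0.987 by edgeR's quasi-likelihood test). DSG1 and DSG3, desmogleins of stratified epithelium, had 0 reads in every library, and DSG4 had 2 reads in 1 PACT KO library. Of the level per kilobase of all desmosomal cadherins, DSG2 made up 78.0% ± 0.654 in parental and 79.2% ± 0.293 in PACT KO cells, and DSC3 0.460% ± 0.0687 and 0.00922% ± 0.0160.

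Of the remaining cadherins, CDH18, a cadherin known from the nervous system, was the only member of the 24 past both thresholds. It had 24, 22 and 18 reads in the parental libraries and 55, 59 and 41 in the PACT KO libraries, or 0.934 ± 0.180 against 2.23 ± 0.199 CPM. Every PACT KO value lay above every parental one. The level rose 2.38-fold, with a log2 fold change of 1.26 (SE 0.21, FDR 5.80e-06 by edgeR's quasi-likelihood test). It stayed among the low members, at 0.219 CPM per kilobase in parental and 0.521 in PACT KO cells. Its start region is printed because it was the member called higher, at chr5:20575714-20575963 on the minus strand (250 bases up to the start, RefSeq, GRCh38.p14), with no E-box to mark in capitals.
CDH18: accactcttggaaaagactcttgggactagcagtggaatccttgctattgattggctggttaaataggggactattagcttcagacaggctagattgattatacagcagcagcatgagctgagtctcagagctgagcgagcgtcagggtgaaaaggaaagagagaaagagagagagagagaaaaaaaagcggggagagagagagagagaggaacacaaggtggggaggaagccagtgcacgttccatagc
From 250 bases before to 50 after the start, it held 5 CG pairs, fewer than DSC3 or DSC2, at 48.7% G and C.

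CDH26, a cadherin of epithelial cells, and CDH24, a cadherin that binds catenins, rose by less. CDH26 had 47.5, 50.2 and 49.4 CPM in the parental libraries and 59.9, 53.9 and 62.9 CPM in the PACT KO libraries. CDH24 had 26.0, 26.8 and 27.6 CPM against 33.2, 28.1 and 32.6 CPM. In both genes the groups were apart, with PACT KO library 2 the lowest of its group. The log2 fold changes were 0.26 (SE 0.04, FDR 7.97e-06) for CDH26 and 0.22 (SE 0.06, FDR 0.0028) for CDH24 by edgeR's quasi-likelihood test. CDH24 no longer passed the FDR threshold without LNCaP parental library 1 (log2 fold change 0.20) or 2 (0.22) or without PACT KO library 1 (0.18) or 3 (0.20).

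CDH15, the cadherin of muscle, was present at 2.38, 2.08 and 2.06 CPM in the parental libraries and 2.10, 2.88 and 2.57 CPM in the PACT KO libraries. These ranges overlapped, and its log2 fold change of 0.21 (SE 0.17) had an FDR of 0.313 by edgeR's quasi-likelihood test. The other 17 cadherins were not tested, 9 of them with 0 reads in every library. CDH2 (N-cadherin), which takes the place of E-cadherin in many mesenchymal cells, had 0 reads in the parental libraries and 1, 0 and 1 in the PACT KO libraries, under the 3 reads that a count of 0 allows. CDH11 and CDH5, cadherins of mesenchymal and endothelial cells, had 0 in all libraries. The summed CPM of all cadherins was 688 ± 8.33 in parental and 706 ± 4.16 in PACT KO cells, of which CDH1 gave most.

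CTNNB1, encoding beta-catenin, which binds the cadherin tail and also acts as a coactivator in Wnt signalling, had 430, 423 and 419 CPM in the parental libraries and 479, 508 and 493 CPM in the PACT KO libraries. The groups were clearly apart, and the level rose by 16.4% (log2 fold change 0.22, SE 0.03, FDR 1.15e-08 by edgeR's quasi-likelihood test). CTNNA1, encoding alpha-catenin, the link to actin, had 587, 586 and 580 CPM against 607, 636 and 608 CPM. Its groups were also apart, but the difference of 0.08 on the log2 scale (SE 0.03) did not pass (FDR 0.0117 by edgeR's quasi-likelihood test), though it passed under 7 of the alternatives described with the processing. Set against CDH1 per kilobase of exon, CTNNB1 stood at 0.446, 0.435 and 0.444 in the parental and 0.5, 0.516 and 0.518 in the PACT KO libraries, and CTNNA1 at 1.22 ± 0.0107 and 1.28 ± 0.0123.

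CTNND1, encoding p120-catenin, which holds cadherins at the membrane, had 6.39, 8.19 and 7.23 CPM against 6.92, 6.17 and 6.87 CPM. The groups overlapped (log2 fold change -0.13, SE 0.11, FDR 0.355 by edgeR's quasi-likelihood test). This value is uncertain, since CTNND1 lies within the readthrough gene TMX2-CTNND1, which had 0 reads in every library, as did 91 of the 114 readthrough genes listed. Whether reads on the exons they share were left uncounted was not tested.

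In the desmosomal plaque, PKP3 fell and PKP2 and DSP rose. PKP3, encoding plakophilin 3, the plakophilin found in most simple and stratified epithelia, had 111, 112 and 110 CPM in the parental libraries and 82.3, 82.6 and 82.9 CPM in the PACT KO libraries. The values hardly varied within a group, and the gap between groups was many times the spread. The level fell by 25.6% (log2 fold change -0.43, SE 0.03, FDR 7.10e-14 by edgeR's quasi-likelihood test).

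PKP2, encoding plakophilin 2, the form of simple epithelia and heart, had 14.2, 12 and 13.9 CPM against 18.3, 19.0 and 20.4 CPM. Again the groups did not overlap, and the level rose by 43.6% (log2 fold change 0.52, SE 0.08, FDR 1.78e-06 by edgeR's quasi-likelihood test). Per kilobase of exon, the ratio of PKP3 to PKP2 was 12.4, 14.7 and 12.5 in the parental libraries and 7.10, 6.85 and 6.42 in the PACT KO libraries, so PKP3 remained the higher of both in every library. PKP1, the plakophilin of stratified epithelium, had 1 to 4 reads per library and was not tested.

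DSP, encoding desmoplakin, which anchors keratin filaments, had 377, 367 and 365 CPM in the parental libraries and 421, 423 and 412 CPM in the PACT KO libraries. All PACT KO values were higher, and the log2 fold change was 0.18 (SE 0.03, FDR 4.25e-07 by edgeR's quasi-likelihood test). An antisense gene at its start, DSP-AS1, had 55 to 84 reads per library, few beside the 7938 to 10410 of DSP. JUP, encoding plakoglobin, which serves both desmosomes and adherens junctions, had 471, 467 and 465 CPM against 452, 460 and 458 CPM. The PACT KO values of JUP were all slightly lower, but the log2 fold change of -0.03 (95% interval -0.09 to 0.02) did not pass (FDR 0.281 by edgeR's quasi-likelihood test).

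The summed CPM of the 5 plaque genes overlapped between groups (962 ± 10.3 and 977 ± 6.4 CPM). Their makeup per kilobase differed. PKP3 went from 19.2% ± 0.172 to 14.7% ± 0.0773 of the sum, DSP from 18.3% ± 0.180 to 21.4% ± 0.312, PKP2 from 1.46% ± 0.127 to 2.17% ± 0.116, and JUP stood at 61.1% ± 0.138 and 61.7% ± 0.187.

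**Figure D2:**
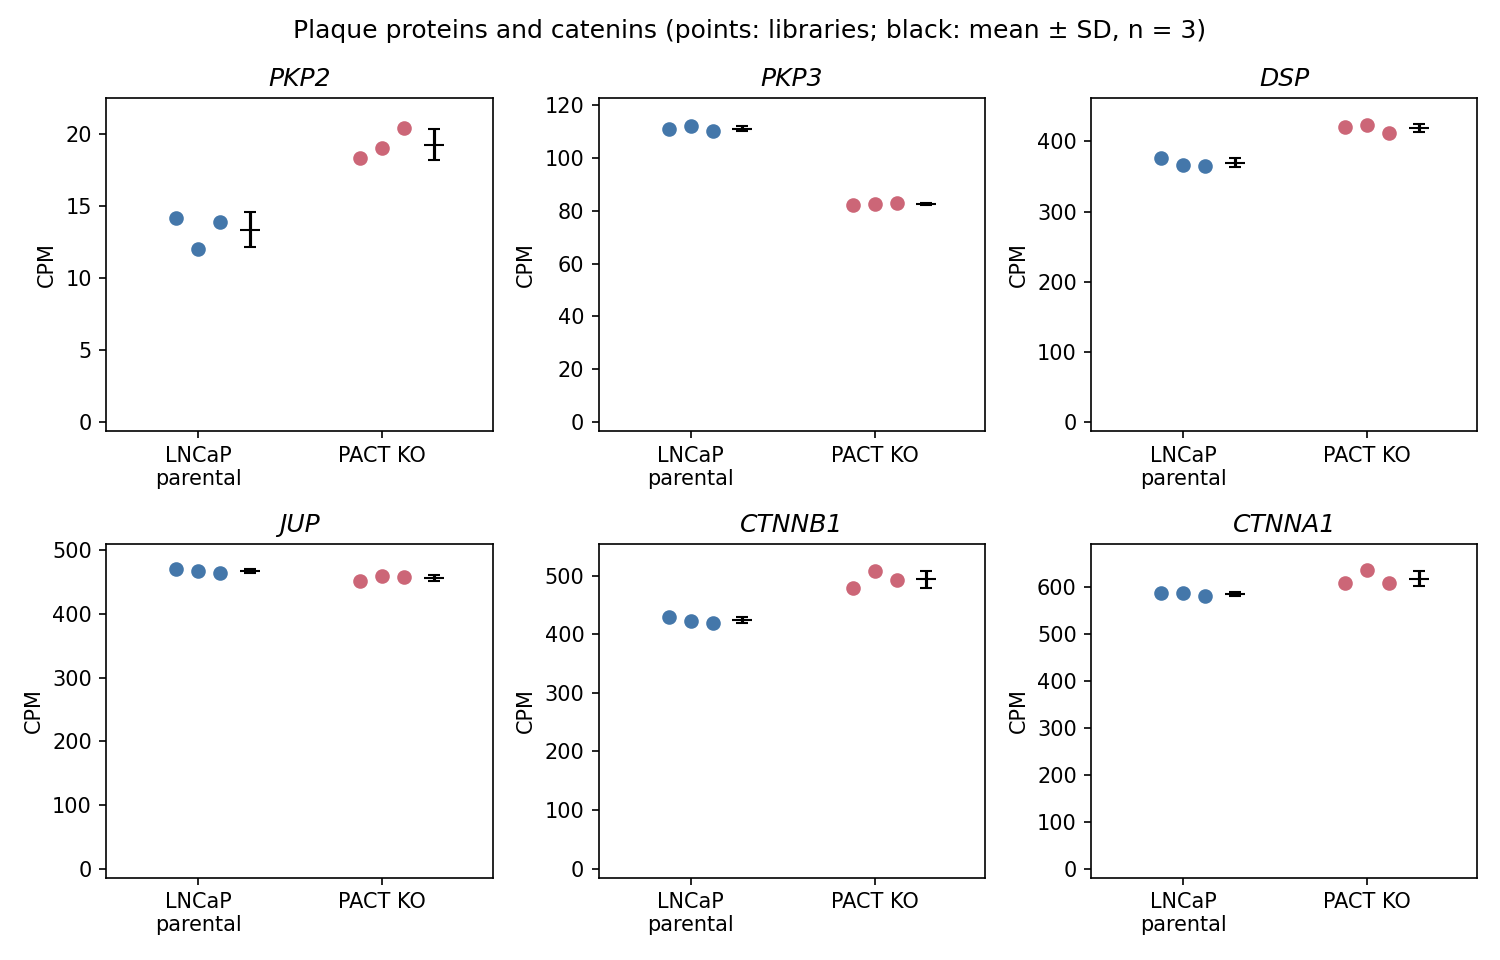
Level (CPM, linear axes from 0) of 4 plaque proteins and 2 catenins in 3 LNCaP parental libraries (blue) and 3 PACT KO libraries (red), with points for libraries and black bars for mean ± SD. PKP3 falls from 111 to 82.6 CPM, PKP2 rises from 13.4 to 19.2 CPM and CTNNB1 from 424 to 494 CPM, while JUP at 468 and 457 CPM and CTNNA1 at 584 and 617 CPM did not pass the test.

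Among the claudins, 8 of 24 had enough reads, of which 2 fell (25%, against 18.8% of all genes) and none rose (against 15.3%) at an FDR under 0.01 by edgeR's quasi-likelihood test (at an unadjusted p under 0.05, 1 was higher, and limma-voom and DESeq2 also gave 0). CLDN4, a claudin that tightens epithelia, had 226, 215 and 215 CPM in the parental libraries and 195, 196 and 197 CPM in the PACT KO libraries. CLDN7, which is also found along the lateral membrane, had 234, 235 and 226 CPM against 207, 214 and 209 CPM. Both sets of PACT KO values lay below the parental ones. The log2 fold changes were -0.16 (SE 0.03, FDR 1.39e-05) for CLDN4 and -0.14 (SE 0.03, FDR 6.94e-05) for CLDN7 by edgeR's quasi-likelihood test. CLDN7 overlaps ELP5, which had 947 to 1247 reads per library, and since it is not given whether strand was used in counting, reads of both genes could be mixed at that overlap. The ratio of CLDN7 to CLDN4 per kilobase was 2.16 ± 0.0644 in parental and 2.18 ± 0.0365 in PACT KO cells.

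CLDN12 had 170, 165 and 169 CPM against 174, 174 and 163 CPM, with overlapping groups and a log2 fold change of 0.02 (SE 0.03, FDR 0.630 by edgeR's quasi-likelihood test). CLDN3, a close relative of CLDN4, had 17.8, 17.9 and 16.4 CPM against 18.5, 19.8 and 20.8 CPM. Its PACT KO values were all higher, but the log2 fold change of 0.18 (SE 0.07) did not pass (FDR 0.0463 by edgeR's quasi-likelihood test). The sum over all claudins was 668 ± 11.3 CPM in parental and 627 ± 7.75 CPM in PACT KO cells, without overlap. Per kilobase, CLDN7 made up 46.9% and 45.2% of this family's level, CLDN4 21.8% and 20.7%, CLDN12 19.7% and 21.2%, and CLDN3 5.70% and 6.87%.

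At the edge of the filter on low counts, CLDN9 was just inside, with 12, 2 and 12 reads against 9, 13 and 5, and CLDN1 just outside, with 10, 5 and 18 reads against 4, 3 and 5. At these counts the 95% interval of the log2 fold change of CLDN9 ran from -0.99 to 1.09, and a difference of moderate size was not detectable. CLDN5 and 9 other claudins had 0 reads in every library.

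OCLN, encoding occludin, had 71.9, 74.5 and 71.4 CPM against 70.3, 72.7 and 75.6 CPM. TJP1, encoding ZO-1, the scaffold that ties claudins to actin, had 335, 334 and 347 CPM against 337, 331 and 334 CPM. In both the groups overlapped. The 95% intervals of the log2 fold change were -0.07 to 0.08 for OCLN (FDR 0.938) and -0.07 to 0.03 for TJP1 (FDR 0.575), by edgeR's quasi-likelihood test.

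Ordered by level per kilobase of exon, parental cells had CTNNA1 first at 149 CPM per kilobase, then JUP at 126, CDH1 at 122 and CLDN7 at 112. CTNNB1 at 54.0 and CLDN4 at 52.1 CPM per kilobase overlapped in their ranges and so had no order, and CLDN12 at 47.1, PKP3 at 39.6, DSP at 37.8, TJP1 at 34.9 and DSG2 at 33.4 followed without overlap. Below a wide gap came CLDN3 at 13.6, OCLN at 11.1, CDH26 at 10.2, DSC2 at 9.22 and CDH24 at 7.55 CPM per kilobase. In PACT KO cells PKP3 moved from place 8 to place 11, under DSG2, at 29.4 CPM per kilobase. CLDN4 (46.7) came under CLDN12 (47.7), with overlapping ranges, and JUP and CDH1, both at 123 CPM per kilobase, overlapped as well. At the other end, DSC3 stood at 0.197 ± 0.0293 and CDH3 at 0.158 ± 0.0457 CPM per kilobase in parental cells.

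**Figure D3:**
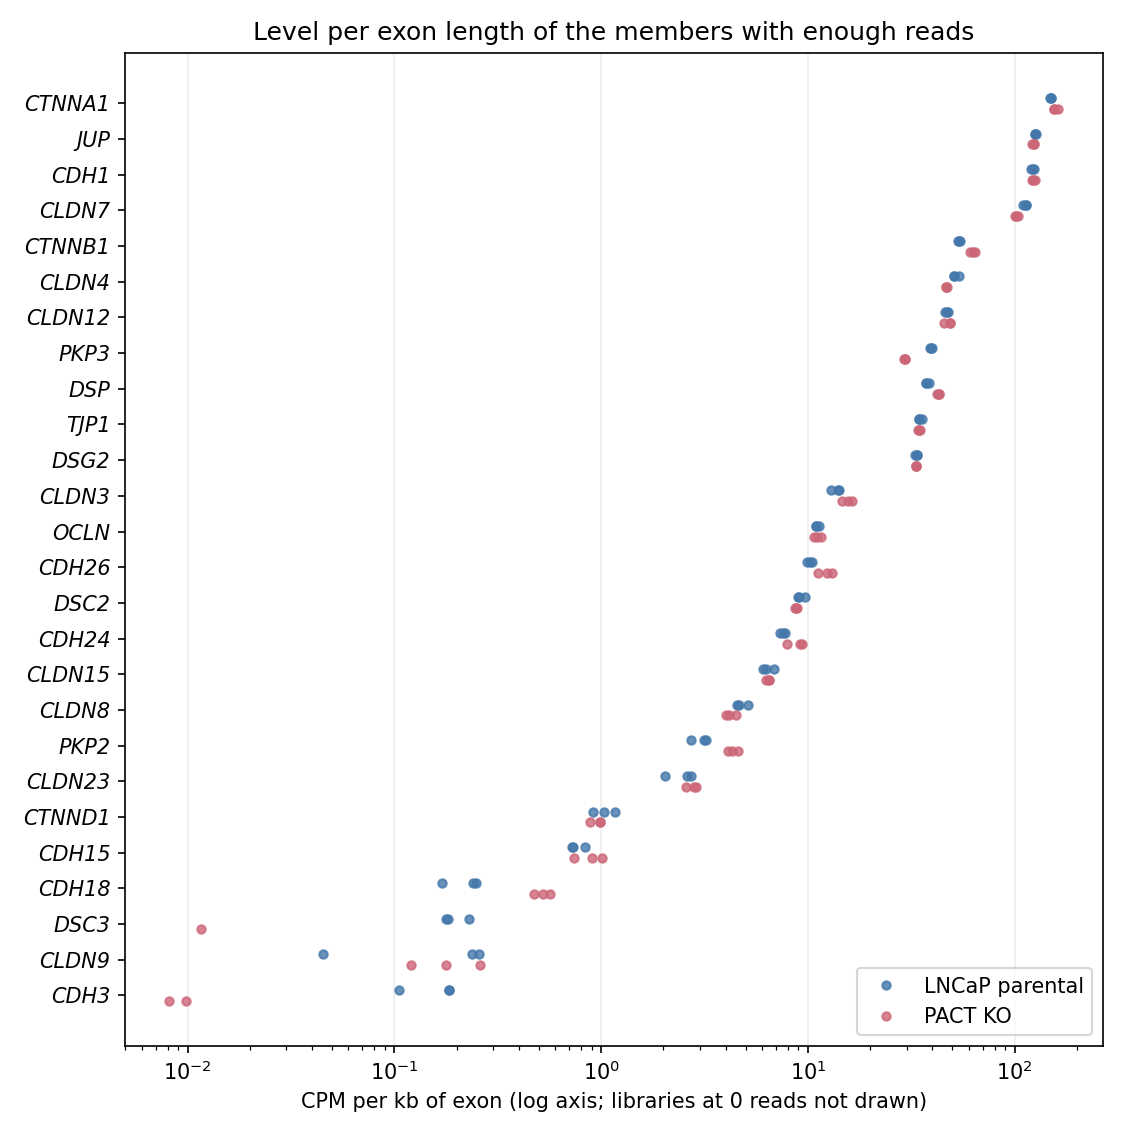
Level per kilobase of exon (CPM per kilobase, log axis) of the 26 members with enough reads, with 1 point per library, blue for LNCaP parental and red for PACT KO; libraries at 0 reads are not drawn. Blue and red points lie close together down to about the level of CLDN15, at 6.42 and 6.39 CPM per kilobase, and CDH3 and DSC3 stand out at the bottom with red points far to the left.

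Over the 24 members without CDH3 and DSC3, the median log2 fold change was 0.01 and the range -0.43 to 1.26, beside a median of 0.00 over all genes. The median size of the change was 0.15 on the log2 scale in the 24 members and 0.15 in all genes tested. CDH3 and DSC3 are left out of the first of these medians, and whether the members differ from other genes was not tested. Summed over all members, the level was 4067 ± 24.5 CPM in parental and 4151 ± 44.0 CPM in PACT KO cells, 2.06% higher. The catenins differed most among the families that gained, with 1015 ± 8.13 against 1118 ± 29.7 CPM.

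**Figure D4:**
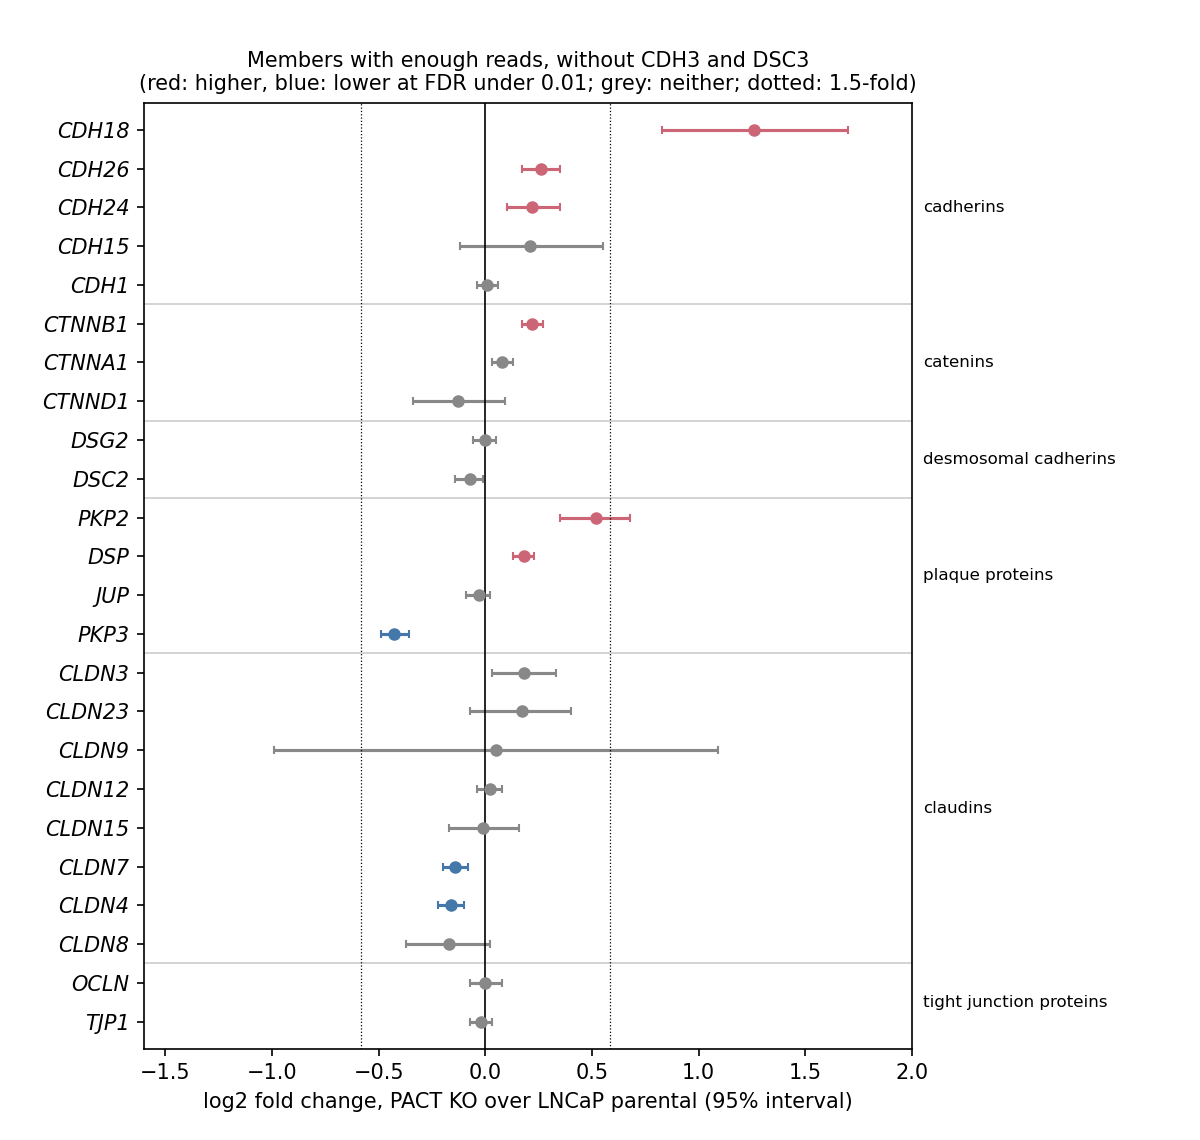
Log2 fold change of PACT KO over LNCaP parental with its 95% interval for 24 members, grouped by family, with red for higher and blue for lower at an FDR under 0.01 and grey for neither. CDH18 at 1.26 lies alone to the right of the dotted line at 1.5-fold, PKP3 at -0.43 is the lowest, and CDH1 at 0.01 and DSG2 at -0.00 sit on 0.

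Beside the members, lists of genes of the same junctions were counted. Of 17 adherens junction partners tested, 3 fell (17.6%, against 18.8% of all genes) and 2 rose (11.8%, against 15.3%) at an FDR under 0.01 (median log2 fold change -0.02). No list was tested against other genes. CTNNA3, an alpha-catenin known from heart and testis, fell from 4.38 ± 0.493 to 2.11 ± 0.482 CPM (log2 fold change -1.07, SE 0.15, FDR 3.21e-07 by edgeR's quasi-likelihood test) and was the only one past 1.5-fold. AJUBA (-0.21), an adaptor that binds alpha-catenin, also fell, while LIMA1 (0.15), which binds actin, rose.

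Of 7 desmosome partners tested, 3 fell (42.9%, against 18.8% of all genes) and 0 rose (against 15.3%) at an FDR under 0.01 (median -0.10; 0 were higher at an unadjusted p under 0.05 by edgeR's quasi-likelihood test or at an FDR under 0.01 by limma-voom or DESeq2), the keratin KRT18 (log2 fold change -0.10), the plakophilin relative PKP4 (-0.12) and envoplakin EVPL (-0.14). Of 27 tight junction partners, 4 fell (14.8%, against 18.8% of all genes) and 6 rose (22.2%, against 15.3%; median 0.00). MPDZ (0.37), a scaffold with many PDZ domains, MAGI3 (0.31) and AMOT (0.33) were among those that rose, and YBX3 (-0.22), which binds ZO-1, and SYMPK (-0.23) among those that fell. None of the tight junction or desmosome partners reached 1.5-fold.

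Of 17 proteases, phosphatases and traffic proteins that act on junctions, 3 fell (17.6%, against 18.8% of all genes) and 7 rose (41.2%, against 15.3%; median 0.09). PTPRK, a receptor phosphatase that dephosphorylates p120-catenin, was past 1.5-fold, with 347, 380 and 360 reads in the parental libraries and 623, 636 and 506 in the PACT KO libraries (log2 fold change 0.69, SE 0.07, FDR 4.94e-10 by edgeR's quasi-likelihood test). Its relative PTPRM rose by 0.39 on the log2 scale, as did RAB11A, of recycling endosomes, by 0.13, whereas SPINT2 (-0.17), a protease inhibitor, and DNM2 (-0.18), dynamin 2, fell.

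Among 17 genes of beta-catenin signalling tested, 3 fell (17.6%, against 18.8% of all genes) and 6 rose (35.3%, against 15.3%; median 0.15). LRP6 (0.28), a Wnt receptor, BCL9 (0.17), a beta-catenin cofactor, and APC (0.22), of the complex that degrades beta-catenin, rose, while MYC (-0.31) and CCND1 (-0.17), both known targets, fell. Of other targets, named after their values were seen, LEF1 rose (log2 fold change 0.52, FDR 2.34e-04 by edgeR's quasi-likelihood test), and AXIN2, at 0.27, did not pass (FDR 0.0155). TCF7L1, named after its values were seen because it was the 1 gene of this list past 1.5-fold, had 5, 6 and 9 reads against 32, 29 and 19, so that it passed the filter on low counts only through PACT KO cells and had to differ. Without it, 5 of the list rose.

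Of the wider cadherin superfamily, 12 of 29 genes were tested, of which 2 fell (16.7%, against 18.8% of all genes) and 5 rose (41.7%, against 15.3%; median 0.14). FAT1, a giant cadherin, fell by 0.43 on the log2 scale, and CLSTN3 (0.28) and CELSR1 (0.30) rose. CDHR1, with 27, 30 and 38 reads against 103, 83 and 72, and PCDH15, with 17, 20 and 14 against 64, 63 and 55, both photoreceptor or hair cell cadherins, were past 1.5-fold (log2 fold changes 1.43 and 1.82).

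The transcription factors and splicing regulators known to set epithelial or mesenchymal state, several of which bind E-boxes at CDH1, were also counted. Of 14 tested, 2 were lower (14.3%, against 18.8% of all genes) and 0 higher (against 15.3%) at an FDR under 0.01 by edgeR's quasi-likelihood test (median -0.10; at an unadjusted p under 0.05, 0 were higher, and limma-voom and DESeq2 also gave 0). TWIST1, a repressor of CDH1 in other cells, had 21, 19 and 20 reads in the parental libraries and 2, 4 and 3 in the PACT KO libraries, so that it passed the filter on low counts only through parental cells and had to differ, and it is described without a test. The 14.3% includes TWIST1 and so says little. Without TWIST1, only ESRP2, a splicing regulator of epithelia, was lower, by 0.20 on the log2 scale. ZEB2 and PRRX1 had 0 reads in every library, and ZEB1 0 to 11 and SNAI2 3 to 6. Other factors of this list that bind E-boxes had more reads and did not pass by edgeR's quasi-likelihood test. SNAI1 had 54, 54 and 55 reads against 38, 54 and 37 (log2 fold change -0.34, FDR 0.112). SNAI3 stood at 0.797 and 0.93 CPM (FDR 0.542), TCF4 at 2.82 and 2.31 CPM (FDR 0.127) and TCF3 at 127 and 126 CPM (FDR 0.767).

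Markers of other cell types were summed beside these results. The summed basal markers, 12 genes that include CDH3 and DSC3, were at 13.6 to 14.5 CPM in the parental and 14.8 to 15.5 CPM in the PACT KO libraries. Most of this was ITGB4, and the other 11 genes, with CDH3 and DSC3 among them, summed to 4.14 to 4.67 and 1.88 to 2.51 CPM. The part of such cells in the loss of CDH3 and DSC3 reads was not tested. Apart from CDH3 and DSC3, which are described without a test, the basal markers with enough reads were ITGB4, which rose (log2 fold change 0.43), and TRIM29, which did not pass (0.22). LAMB3, not tested, had 19, 7 and 9 reads against 5, 2 and 4. The summed mesenchymal markers were at 385 to 397 against 396 to 405 CPM. Of these 12 genes, 6 were tested, of which 2 rose (33.3%, against 15.3% of all genes) and 1 fell (16.7%, against 18.8%) at an FDR under 0.01. VIM, the filament protein vimentin, rose from 6.4 ± 0.392 to 25.3 ± 1.55 CPM (log2 fold change 1.99, SE 0.09, FDR 8.16e-21 by edgeR's quasi-likelihood test). COL1A1 also rose (0.52), while FN1, most of the sum at 342 and 317 CPM, fell (-0.11). CDH11, COL1A2, POSTN and MMP2 had 0 reads throughout. The summed markers of squamous cells, 4 of whose 12 genes are members here, overlapped between groups at 24.3 to 27.1 and 24 to 26.8 CPM, nearly all of it KRT10. Of 2 tested, KRT10 did not pass (log2 fold change 0.02) and SFN was lower (-1.42). SFN had only 28, 27 and 28 reads against 11, 13 and 7, near the filter on low counts in PACT KO cells. The 7 endothelial markers stood at 25.4 to 27.8 against 17.1 to 19.1 CPM, nearly all of it VWF, while CDH5, PECAM1 and CLDN5 had 0 reads. The 2 tested went opposite ways, VWF lower (log2 fold change -0.61) and ESAM higher (0.96). ESAM had 19, 12 and 26 reads against 32, 37 and 42.

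Promoters of members were compared as a group from the same RefSeq table, which held 44 of the 64. The 16 entries of tested members had a median of 23.5 CG pairs in this window, and the 28 of members not tested 7.5, beside 26 over all genes tested. The E-box was held by 6 of the 16 (37.5%) and 5 of the 28 (17.9%), beside 19.0% of tested genes. The GC box was held by 68.8% and 32.1%, beside 69.5%, and TATAAA or its complement by 0% and 7.14%, beside 5.64%. These are descriptions of letters in a window and not of factors bound there.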

How the data were processed

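PolyA RNA of 3 dishes of LNCaP parental cells and 3 dishes of PACT KO cells was sequenced on an Illumina NovaSeq. The deposited values are counts, whole numbers of reads per NCBI Gene number that were not normalized by the authors. The submitters' processing notes name bcl2fastq 2.20.0.422, STAR 2.5.3a, StringTie 1.3.3, featureCounts 1.5.3 and hg38, and the use of strand is not given in the sources used here. An unnamed entry with 0.0688% to 0.0708% of a library's counts was left out. Symbols came from RefSeq for 27540 of 29806 gene numbers (92.4%).

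Genes were kept by edgeR's filterByExpr, libraries were scaled by TMM, and groups were compared by the quasi-likelihood F-test of edgeR 4.0.16 (R 4.3.3), 2-sided, with Benjamini-Hochberg adjustment over all 14462 genes tested (biological coefficient of variation 2.9%). Genes were called at an FDR under 0.01 and at least 1.5-fold, the study's thresholds. CPM used TMM-scaled libraries, and levels per kilobase the union of exons in GENCODE release 29. Alternatives included limma-voom (limma 3.58.1) and DESeq2 1.42.0. Replicates differed by more than sampling noise (chi-square per gene 1.61 to 4.00, where 1 is sampling noise). An exact permutation test of 3 against 3 cannot go below p = 0.1 and was not used.

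The members and lists were chosen with earlier results of these data known. Named with values were CDH1, CDH3, DSC3, called members, members listed by name, the 4 highest of each family, those at the filter's edge, and up to 5 genes per list with the smallest p. Some other genes of the lists were named beside these. CDH3 and DSC3 got a ratio of summed reads with a Clopper-Pearson 95% interval, since they had 1 to 3 reads in PACT KO cells.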

Additional observations from a re-analysis of the deposited data

How the results depend on the processing

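Of the 24 members without CDH3 and DSC3, 0 were lower and 1 was higher past 1.5-fold in each of the 14 alternatives, those that left out 1 library included, and 3 were lower at an FDR under 0.01 in each. With no fold threshold the counts over all 26 were 5 lower and 6 higher, of which CDH3 and DSC3 are 2 lower by the choice of members, so that they say nothing of stability. Over fits that each left out 1 library, 5 to 6 were higher at that FDR. Without a library left out, 6 to 7 were higher at that FDR, since CTNNA1 passed with library totals alone (log2 fold change 0.11), with the filter of over 0.5 CPM in 3 libraries (0.09), and with robust quasi-likelihood, limma-voom or DESeq2 (0.08 each). It also passed without PACT KO library 1 or 3 (0.10 each).

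Over 21 named genes and 14 alternatives, 265 of 293 log2 fold changes kept their direction and their side of the FDR threshold. Of the others, 4 no longer passed that threshold (CDH24), 7 newly passed it (CTNNA1) and 17 changed sign. The sign changed in genes near 0 or with few reads, and the cause was not tested. DSG2 was 0.00 under RLE scaling, no filter on low counts and DESeq2, 0.01 under the 0.5 CPM filter and 0.03 with library totals alone, and -0.01 to 0.01 with 1 library left out. TJP1 was 0.01 with library totals alone. With 1 library left out at a time, TJP1 ran from -0.03 to 0.00, the latter without LNCaP parental library 3. CDH1 ran from -0.01 (without PACT KO library 2) to 0.02, OCLN from -0.02 (without PACT KO library 3) to 0.03, and CLDN9 from -0.37 (without LNCaP parental library 2) to 0.36, with -0.27 without PACT KO library 2.

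No shared deviation was seen between libraries with the same replicate number in the labels. Their deviations correlated at -0.09, 0.00 and -0.09, beside -0.08 to 0.15 for libraries of different number. Such values cannot show whether the dishes were handled as pairs. With the replicate number as a block, 0 of the 24 members were called lower and 1 higher, and 3 fell and 6 rose at the FDR, the counts without it. Depth limits the members with few reads. Under about 3 reads per library, 0.12 to 0.151 CPM, a difference was not detectable. Above that, CLDN1 still had too few reads to test, and for CLDN9 a difference of moderate size was not detectable.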
